A study of Mus musculus with 18 samples.

Results

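The mRNAs described here encode the nuclear subunits of respiratory complex I. A gene was a member where a probe set named it alone and its symbol was Nduf followed by a, b, c, s or v and a number. That gave 32 genes of the 17097 named on the array, measured by 59 probe sets. All 32 had a probe set past the filter on dim signals, so none of the 32 was lost, although 4 further probe sets of members fell below it. Where a member had several probe sets, the brightest on average over the 18 arrays stood for it. The mouse gene table holds 37 symbols of this form, and the other 5 were not analysed here.

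Cortex and striatum were dissected together from 3 control mice and 3 TgCPEB4∆4 mice, all aged 6 weeks. TgCPEB4∆4 is a transgene for CPEB4 without its microexon, exon 4. CPEB4 binds cytoplasmic polyadenylation elements in mRNA and regulates the length of the poly(A) tail. The sources used here give neither the promoter of the transgene nor any allele that the control mice carry. From each mouse, total RNA (INPUT) and a pair of fractions from a poly(U) column were hybridised to 1 array each. RNA that came off at 25% formamide is enriched for short tails and is called WASH, and RNA that came off at 90% formamide is enriched for long tails and is called ELUTED. The tail ratio is log2 ELUTED minus log2 WASH within a mouse, so a value below 0 means that a transcript made up a larger share of the short-tail than of the long-tail fraction. It is not a tail length in nucleotides. Equal amounts of RNA were amplified from each preparation, so a level is a share of that preparation.

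Complex I is the entry point of the mitochondrial respiratory chain. It oxidises NADH, passes the electrons to ubiquinone and pumps protons across the inner membrane. Its matrix arm holds an N module, where NADH is oxidised, and a Q module, where ubiquinone is reduced, and its membrane arm holds the proton pumps. The core subunits of the membrane arm are encoded in mitochondrial DNA, those of the matrix arm in the nucleus, and around the core lies a shell of nuclear-encoded accessory subunits. Neurons depend heavily on this chain for ATP, and mutations in nuclear subunits such as Ndufs4 cause neurological disease in mice and humans.

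The median log2 value of an array lay between 6.42 and 6.59. Neuronal markers (Rbfox3, Snap25, Syt1, Stmn2, Tubb3) stood above the nonspecific control probe sets on every INPUT array, as did 4 of 5 striatal markers and 2 of 3 cortical ones, while Neurod6 did so on none. The summed log2 level of 5 astrocyte markers was 12.49 to 12.52 in control and 12.56 to 13.82 in transgenic INPUT. That of 6 inflammation genes was 10.86 to 10.92 and 10.90 to 13.89, and that of 5 microglial markers 11.04 to 11.16 and 11.11 to 12.12. Each inflammation gene was highest in transgenic mouse 1. In transgenic mice 1, 2 and 3 Lcn2 read 10.78, 5.29 and 5.30, against 5.20 to 5.48 in control mice. Serpina3n read 11.79, 8.64 and 6.18, against 5.93 to 6.27. Gfap, which is in both the astrocyte and the inflammation list, read 12.75, 12.17 and 10.51, against 10.47 to 10.58. As for astrocytes, the ranges of control and transgenic mice did not overlap for striatal neurons (12.31 to 12.37 and 12.05 to 12.14), for endothelial and mural cells (11.005 to 11.27 and 11.31 to 11.44) and for meninges and fibroblasts (9.77 to 9.95 and 10.13 to 10.47, with 2 of 5 markers above the control probe sets on every INPUT array, and Col1a2 and Lum on none). They overlapped for neurons as a whole, cortical neurons and oligodendrocytes. For choroid plexus markers it was 9.56 to 10.79 and 9.16 to 12.10, with Kl, Folr1 and Aqp1 above the control probe sets on no INPUT array. In bulk tissue, fewer cells of a type and less RNA per cell cannot be told apart, and the part of these shifts in the genotype differences of the members was not tested. Neither of the 2 probe sets for Cpeb4 past the filter passed the test between genotypes in INPUT (differences of 0.27 ± 0.23 and 0.01 ± 0.16 log2, SE, adjusted p 0.645 and 0.991). The sources used here do not say whether they read the transgene.

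In total RNA the complex I mRNAs were at nearly the same level in all 6 mice. The median over the 32 members was 10.69, 10.67 and 10.54 log2 units in the control mice and 10.72, 10.69 and 10.71 in the transgenic mice. The genotype difference in INPUT had a median of 0.09 over members, against 0.03 over all 11974 genes tested, and ran from -0.06 for Ndufa3 to 0.25 for Ndufb5. With limma, 0 members and 0% of genes passed an adjusted p of 0.05, and 0 members reached an unadjusted p of 0.05, where 11.3% of genes did. The smallest p-values belonged to Ndufs3, Ndufb7, Ndufa11 and Ndufb9. Ndufs3, a core subunit of the Q module, read 10.51, 10.37 and 10.46 in INPUT of control mice and 10.61, 10.68 and 10.69 in that of transgenic mice, groups that did not overlap. Its difference was 0.21 ± 0.10 log2 (SE, n = 3 per genotype, adjusted p 0.471). Ndufb7, an intermembrane-space subunit of the membrane arm, differed by 0.21 ± 0.10 (adjusted p 0.475), Ndufa11 by 0.19 ± 0.10 (adjusted p 0.494) and Ndufb9 by 0.16 ± 0.10 (adjusted p 0.557). For 7 members every transgenic INPUT value lay above every control value, as it did for 13.2% of genes.

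In control mice the complex I mRNAs were low in the long-tail fraction relative to the short-tail fraction. All 32 members had a negative tail ratio in all 3 control mice, and all 32 passed the test on their mean (adjusted p from 0.00045 to 0.00434). Over all genes tested, 39.9% passed in this direction and 20.5% in the other, where 0 members did. The median tail ratio was -2.06 over members and -0.18 over all genes. The members were brighter, with a median INPUT level that averaged 10.63 over the control mice, against 7.96 over all genes. Over all genes the median ratio was 0.05 with no filter and -0.36 with the filter at the 60th percentile, lower as dim genes were left out. The shares of all genes given beside the members are therefore not shares of genes of like level, and the part of level was not tested. By mouse, the median over members was -2.41, -1.37 and -2.39, so control mouse 2 lay about 1 log2 unit above its group mates. It had the highest of the 3 control ratios for 28 members, and control mouse 1 for the other 4, Ndufa3, Ndufb4, Ndufb7 and Ndufs8. The SD of the tail ratio over all probe sets past the filter was also smallest in that mouse among control mice, 0.59 against 1.19 and 0.86. Whether that spread has a part in the member values was not tested.

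**Figure D1:**
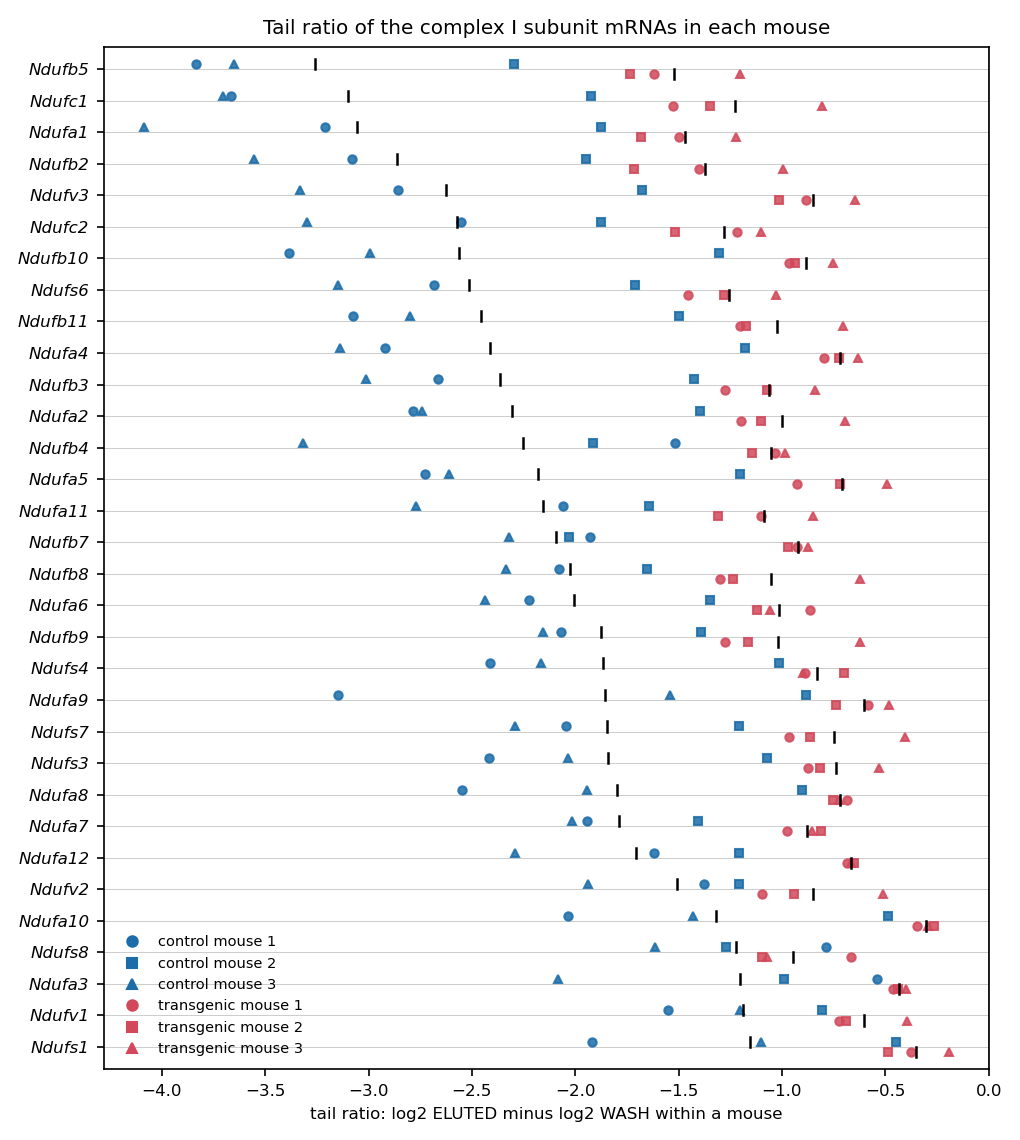
Tail ratio (log2 ELUTED minus log2 WASH, horizontal axis) of the 32 complex I members, ordered from the lowest control mean (Ndufb5, -3.26) at the top to the highest (Ndufs1, -1.15). Symbols are single mice, black ticks are means of 3 mice. All values lie below 0, and control mouse 2 (blue squares) lies nearest the transgenic mice for most members.

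The means of the members in control mice ran from -3.26 to -1.15. Counted from the lowest, the core subunits Ndufs7 and Ndufs3 ranked 22 and 23, and Ndufv2, Ndufs8, Ndufv1 and Ndufs1 ranked 27, 29, 31 and 32. All 6 core subunits measured had a control tail ratio above the median of all members. Their median was -1.37, against -2.18 for the 25 accessory subunits. In the N module, Ndufv1 binds NADH and the flavin that accepts its electrons, and Ndufv2 and Ndufs1 carry iron-sulphur clusters. Ndufs1 had tail ratios of -1.92, -0.45 and -1.10 in the control mice, a mean of -1.15 ± 0.74 (SD, n = 3). Those of Ndufv1 were -1.55, -0.81 and -1.20, a mean of -1.19 ± 0.37, and those of Ndufv2 were -1.38, -1.21 and -1.94, a mean of -1.51 ± 0.38. These 3 ranges overlap, so the order of the N module subunits is within the spread of the mice. In the Q module, Ndufs7 and Ndufs8 carry the clusters nearest to ubiquinone. Ndufs8 gave -0.79, -1.27 and -1.61, Ndufs3 gave -2.42, -1.07 and -2.04, and Ndufs7 gave -2.04, -1.21 and -2.29. The means of Ndufs3 and Ndufs7, -1.84 and -1.85, were lower than that of Ndufs8, -1.22, but the values of single mice overlap here too.

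The lowest control ratios belonged to small accessory subunits, most of them of the membrane arm. Ndufb5, of the distal membrane arm, was lowest. Its WASH values were 10.24, 10.20 and 10.16, and its ELUTED values were 6.41, 7.91 and 6.50, which gave ratios of -3.83, -2.29 and -3.65. The WASH values hardly varied and the spread came from the long-tail fraction. On the ELUTED array of control mouse 1, Ndufb5, Ndufa6 and Ndufb10 were not above the highest nonspecific control probe set, which stood at 7.30 there against 5.53 and 6.11 on the arrays of the other control mice. Ndufc1, a small membrane subunit, read 11.61, 11.45 and 11.59 in WASH and 7.95, 9.53 and 7.88 in ELUTED, a mean ratio of -3.10 ± 1.02 (SD, n = 3, adjusted p 0.000496). Ndufa1, a single-pass membrane subunit whose loss blocks complex I assembly, gave -3.21, -1.87 and -4.09, the widest range of these. Ndufb2 followed with a mean of -2.86 ± 0.82, Ndufv3 with -2.62 ± 0.85 and Ndufc2 with -2.57 ± 0.71. Ndufv3 is the exception among these 6 in that it belongs to the matrix arm.

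Beside the core subunits Ndufs1, Ndufv1, Ndufs8 and Ndufv2, the upper end held the accessory subunits Ndufa3 and Ndufa10. Ndufa3, a small membrane subunit, had ratios of -0.54, -0.99 and -2.08, and Ndufa10, which resembles nucleoside kinases, had -2.03, -0.49 and -1.43. These means, -1.20 ± 0.79 and -1.32 ± 0.78 (SD, n = 3), rest on control mice that lie far apart. By position, the median control ratio was -2.37 over 9 accessory subunits of the distal membrane arm, -2.16 over 7 of the proximal membrane arm and -2.004 over 9 of the matrix arm. These medians describe the groups and were not tested against each other. Across the 32 members the control tail ratio had little relation to the mean INPUT level (Pearson r 0.07, Spearman rho 0.11, a description over genes measured in the same mice).

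Against total RNA, the shortfall lay in the long-tail fraction. ELUTED minus INPUT in control mice was below 0 and passed the test for all 32 members, with a median of -1.89 against -0.03 over all genes. Over all genes 15.6% passed as lower and 3.88% as higher, and 0 members as higher. Without control mouse 3 the count was 17 members, and 275 genes in all passed. WASH minus INPUT in control mice had a median of 0.27 over members against 0.13 over genes. It was higher for 15 members, where 36.3% of genes were, and lower for 0 members, where 12.5% of genes were. Among the 15 were Ndufb5 (0.71 ± 0.12 log2, SE), Ndufb9 (0.54 ± 0.08), Ndufb11 (0.52 ± 0.08) and Ndufv1 (0.46 ± 0.08). Without control mouse 3 this count was 9, and 3780 genes in all passed, 76.3% of them as higher. Ndufa1 and Ndufc2, which had among the lowest tail ratios, had WASH minus INPUT values of -0.03 ± 0.10 and -0.04 ± 0.09 that did not pass (adjusted p 0.797 and 0.706).

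**Figure D2:**
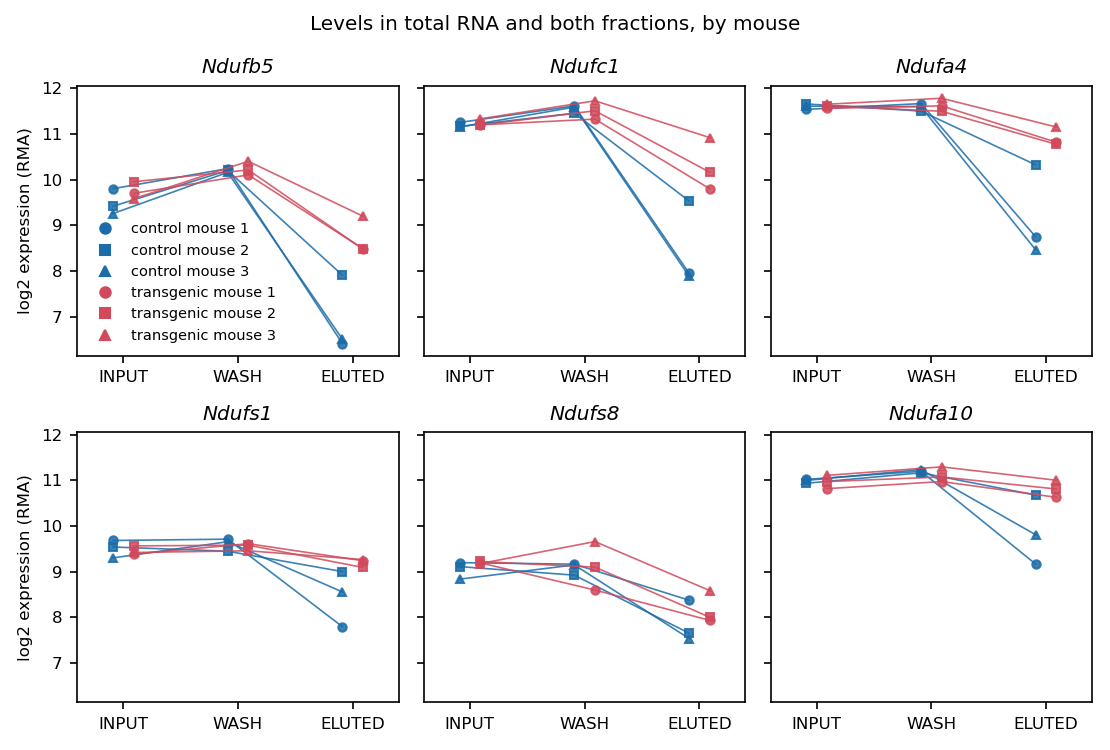
Log2 expression (vertical axis) in INPUT, WASH and ELUTED for 6 members, with 1 line per mouse, control in blue and transgenic in red. INPUT and WASH values lie close together in both genotypes, and in ELUTED the control mice lie lowest relative to WASH for Ndufb5, Ndufc1 and Ndufa4, with control mouse 2 between the other control mice and the transgenic mice.

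In transgenic mice the same mRNAs also had negative tail ratios, but closer to 0. All 32 members were below 0 in all 3 transgenic mice, and 24 passed the test, where 20.5% of genes passed as lower and 6.50% as higher. The median was -0.91 over members and -0.17 over all genes. By mouse, it was -0.97, -0.99 and -0.71. The members with the lowest means were Ndufb5 at -1.52 ± 0.28 (SD, n = 3), Ndufa1 at -1.47 ± 0.23 and Ndufb2 at -1.37 ± 0.36, which were also among the 4 lowest in control mice. The 8 members that did not pass were Ndufa3, Ndufa4, Ndufa5, Ndufa8, Ndufa9, Ndufa10, Ndufb10 and Ndufs1. Of these Ndufa10 (-0.35, -0.26 and -0.29, adjusted p 0.362) and Ndufs1 (-0.37, -0.49 and -0.19, adjusted p 0.277) lay nearest 0. Their values varied little between mice, but the test shared 1 estimate of the spread with the control mice, and the SD was larger in control mice for 31 of 32 members. Fitted on the transgenic mice alone, all 32 members passed, but so did 5953 of the 11974 genes, 26.1% of them as higher. Without transgenic mouse 1, or without transgenic mouse 2, 0 members and 0 genes passed.

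The order of the members was alike in both genotypes. Across the 32 members, the mean tail ratios of control and transgenic mice correlated at r 0.81 (rho 0.76). Between single mice r ran from 0.31, for control mouse 1 with transgenic mouse 3, to 0.88, for transgenic mouse 1 with transgenic mouse 2. These are descriptions across genes that share probes and arrays, not tests across mice. Ndufa4, Ndufv3 and Ndufs8 moved most in the order of the means. Ndufa4 ranked 10 from the lowest in control mice and 25 in transgenic mice, Ndufv3 ranked 5 and 19, and Ndufs8 went the other way, from 29 to 15.

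Against total RNA, ELUTED minus INPUT in transgenic mice was below 0 for all 32 members with a median of -0.87, against -0.01 over genes. Of them 1 passed, Ndufa6 (-1.09 ± 0.17 log2, SE, adjusted p 0.0472), where 0.225% of genes passed as lower and 0.0418% as higher, and 25 members had an unadjusted p under 0.05. Without any 1 of the mice the count ran from 0 to 22. It was 22 without control mouse 1, 4 without control mouse 2 and 0 without any other mouse. Genes called in either direction numbered 936, 93 and 3 in these runs. WASH minus INPUT was higher for 10 members, where 35.5% of genes were, led by Ndufb5 (0.50 ± 0.12), Ndufb11 (0.48 ± 0.08) and Ndufv1 (0.45 ± 0.08). It was lower for 1 member, Ndufa12 (-0.25 ± 0.09, adjusted p 0.0351), where 11.9% of genes were. That call was lost without transgenic mouse 1 or 2, and 2 members were lower without transgenic mouse 3.

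Between the genotypes, the long-tail fraction of transgenic mice held more of the complex I mRNAs in these samples, but no member passed the test across all genes. ELUTED values averaged higher in transgenic mice for all 32 members, by a median of 1.16 log2 units against 0.08 over all genes, from 0.32 for Ndufs8 to 1.84 for Ndufc1. With limma, 0 members and 0% of genes had an adjusted p under 0.05. The smallest adjusted p among members was 0.278, and 29 members, against 18.1% of genes in either direction, had an unadjusted p under 0.05. By mouse, the median ELUTED level of the members was 8.38, 9.46 and 8.30 in control mice and 9.67, 9.90 and 10.43 in transgenic mice, with the highest control mouse below the lowest transgenic one. Control mouse 2 was the highest control mouse for 27 members, and transgenic mouse 3 the highest transgenic mouse for all 32. For 26 members every transgenic ELUTED value lay above every control value, as for 18.2% of genes. The exceptions were Ndufa3, Ndufa5, Ndufa10, Ndufb7, Ndufb10 and Ndufs8.

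The members with the smallest p in ELUTED were Ndufb5, Ndufa7, Ndufc2 and Ndufb2. Ndufb5 read 6.41, 7.91 and 6.50 in control mice and 8.48, 8.48 and 9.20 in transgenic mice, a difference of 1.78 ± 0.41 (SE, adjusted p 0.278). Ndufa7, an accessory subunit of the matrix arm, read 8.10, 8.20 and 8.01 against 8.63, 9.17 and 9.44, a difference of 0.98 ± 0.23 (adjusted p 0.278). The control values of Ndufa7 lay close together, and mouse 2 did not stand apart for it. Ndufc2 differed by 1.50 ± 0.37 and Ndufb2 by 1.54 ± 0.39, both with adjusted p 0.278. Without control mouse 2, 23 members passed in ELUTED, together with 1222 genes in all, of which 93.0% were higher in transgenic mice.

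In the short-tail fraction the members lay on both sides of 0. WASH differed between genotypes by a median of 0.01 over members and 0.03 over genes, with 0 members and 0% of genes past the test in limma, 19 members above 0 and 13 below. At an unadjusted p under 0.05 there were 0 members and 16.7% of genes. For 0 members did every transgenic WASH value lie above every control value, where that held for 16.1% of genes. The members with the smallest p pointed both ways. Ndufa1 read 10.70, 10.53 and 10.54 in WASH of control mice against 10.68, 10.72 and 11.08 (0.24 ± 0.12, adjusted p 0.374), and Ndufc2 differed by 0.21 ± 0.12 (adjusted p 0.422). Ndufb7 read 10.51, 9.97 and 10.32 against 9.07, 9.84 and 10.57 (-0.45 ± 0.33, adjusted p 0.513), and Ndufb10 differed by -0.30 ± 0.23 (adjusted p 0.529). For Ndufb7 the low mean came from transgenic mouse 1, and the groups overlap.

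**Figure D3:**
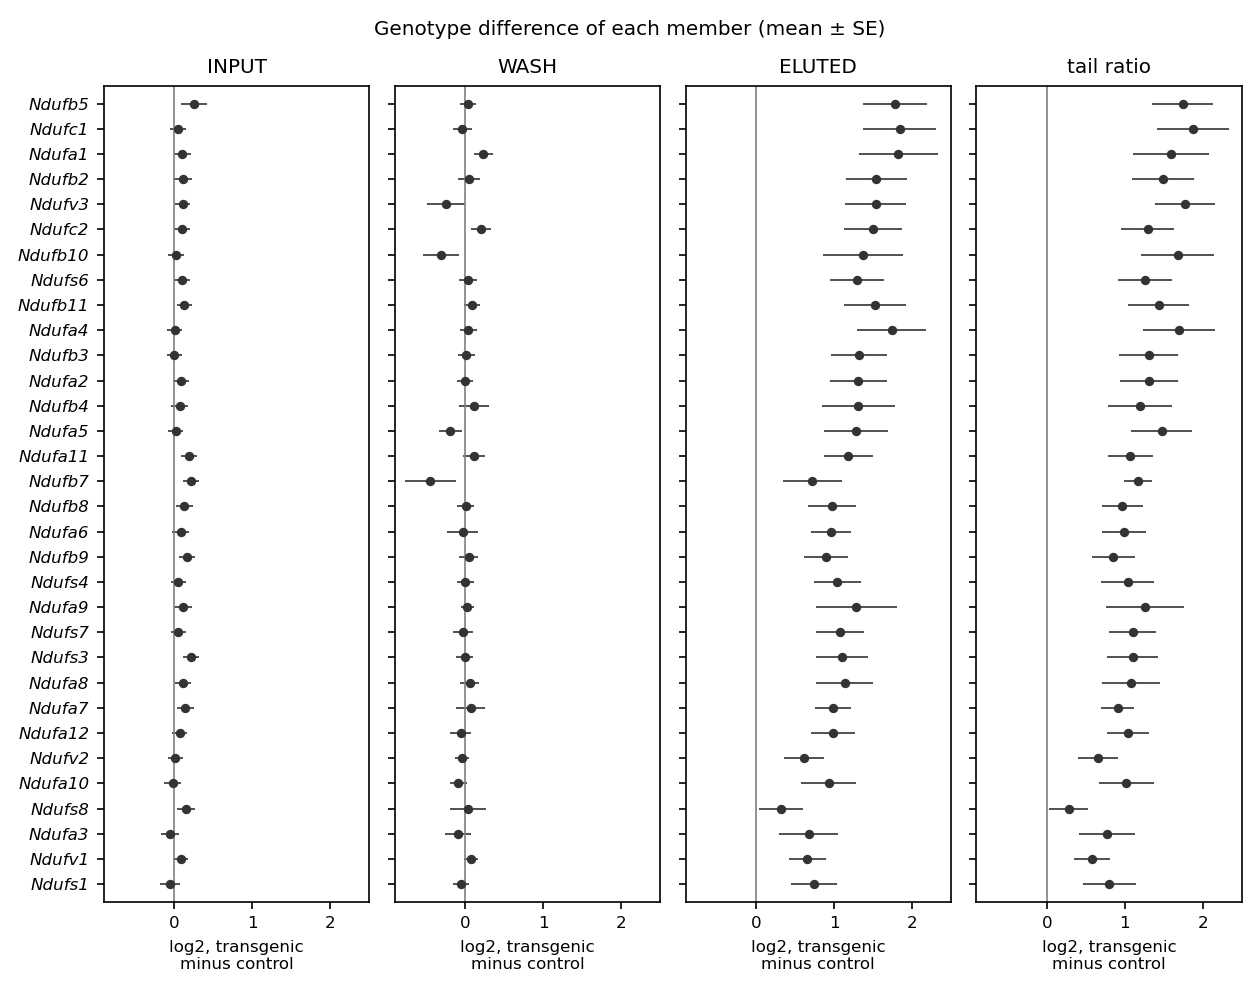
Transgenic minus control difference (log2, mean ± SE from limma, horizontal axes) for the 32 members in INPUT, WASH, ELUTED and the tail ratio, in the order of the control tail ratio. Differences lie near 0 in INPUT and WASH (medians 0.09 and 0.01) and above 0 in ELUTED and the tail ratio (medians 1.16 and 1.14), and 0 members pass an adjusted p of 0.05 in any panel.

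The tail ratio was higher in transgenic than in control mice for all 32 members, by a median of 1.14 log2 units against 0.02 over all genes. With limma, 0 members and 0% of genes passed at an adjusted p of 0.05. The smallest adjusted p was 0.371, and 30 members, against 14.1% of genes in either direction, had an unadjusted p under 0.05. For 30 members every transgenic ratio lay above every control ratio, as for 11.9% of genes, and the exceptions were Ndufs1 and Ndufs8. The largest differences were those of Ndufc1 (1.87 ± 0.46, SE), Ndufv3 (1.77 ± 0.38), Ndufb5 (1.74 ± 0.39) and Ndufa4 (1.69 ± 0.46). The smallest were those of Ndufs8 (0.28 ± 0.25), Ndufv1 (0.59 ± 0.23), Ndufv2 (0.66 ± 0.25) and Ndufa3 (0.77 ± 0.36). The median difference was 0.73 over the 6 core subunits and 1.26 over the 25 accessory ones. Control mice enter both the control ratio and this difference, so the 2 orders are not independent. Ndufb7 had the smallest unadjusted p of the members, with ratios of -1.93, -2.03 and -2.32 in control mice and -0.93, -0.97 and -0.88 in transgenic mice (1.17 ± 0.18, adjusted p 0.371). Both of its fractions were lowest in transgenic mouse 1 (9.07 in WASH and 8.14 in ELUTED) and highest in mouse 3 (10.57 and 9.69), so the ratios of these mice stayed close together.

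The size of the genotype difference changed when single mice were left out, most without control mouse 2, and when each mouse's ratios were scaled to the same SD. Without control mouse 2, 27 members passed as higher, with a median of 1.47, and 1249 genes passed in all, 88.0% of them higher. Without any 1 of the other mice, 0 members passed, and the median stayed between 0.95 and 1.19. The SD of the tail ratio over all probe sets past the filter was 1.19, 0.59 and 0.86 in control mice and 0.61, 0.62 and 0.39 in transgenic mice. With each mouse's ratios scaled to the same SD, the median difference was 0.52, Ndufs8 turned to -0.22, and 0 members passed. The difference between 3′ and 5′ probe sets for actin, a sign of RNA length, was -1.08, -0.66 and -0.96 in ELUTED of control mice and -0.74, -0.75 and -0.69 in that of transgenic mice, so control mice 1 and 3, with the lowest member medians in ELUTED, also had the lowest actin values. Control mouse 2 had the highest actin value of the 6, while its member median in ELUTED, 9.46, lay below all 3 transgenic ones. For Gapdh the same difference was 0.15, -0.18 and -0.12 in ELUTED of control mice and -0.15, -0.14 and -0.13 in that of transgenic mice. By Gapdh, control mice 1 and 3 had the highest values of the 6 and control mouse 2 the lowest, the reverse of actin. The part of these measures in the result was not tested.

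**Figure D4:**
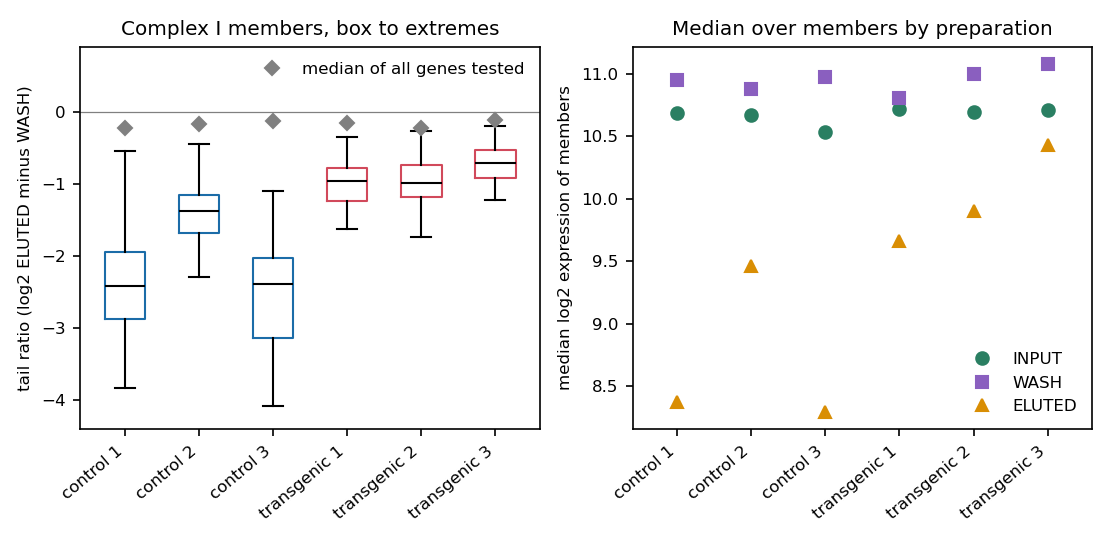
Left, tail ratios of the 32 members in each mouse (boxes show quartiles, whiskers the extremes, black lines the median) with the median of all genes as grey diamonds. Right, median log2 level of the members in INPUT, WASH and ELUTED by mouse: INPUT and WASH lie between 10.54 and 11.08 in all 6 mice, while ELUTED lies between 8.30 and 9.46 in control and between 9.67 and 10.43 in transgenic mice.

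Ndufa4 carries a complex I name but is now placed in complex IV. It was abundant in total RNA, at 11.54, 11.66 and 11.61 in control mice and 11.56, 11.62 and 11.65 in transgenic mice. In ELUTED it read 8.74, 10.32 and 8.46 against 10.82, 10.77 and 11.15. Its tail ratio was -2.41 ± 1.07 (SD, n = 3) in control mice, which passed (adjusted p 0.000846), and -0.72 ± 0.08 in transgenic mice, which did not (adjusted p 0.119). Leaving it out as a subunit of another complex therefore removes 1 of the largest genotype differences and no call in that comparison. The complex I genes that the symbol rule misses went different ways. Ndufab1, the mitochondrial acyl carrier protein and a complex I subunit, had a control tail ratio of -2.33 ± 0.24 (SE, adjusted p 0.000488) and a transgenic one of -1.12 ± 0.24 (adjusted p 0.0132). On the ELUTED array of control mouse 1 it read 6.25, which was not above the highest nonspecific control probe set (7.30), so the size of the control ratio is uncertain. Ndufa4l2, a hypoxia-induced relative of Ndufa4, had 0.37 ± 0.23 (adjusted p 0.179) and 0.20 ± 0.23 (adjusted p 0.502). On no INPUT array of either genotype did it exceed the highest nonspecific control probe set, but it did so on all 12 WASH and ELUTED arrays. Of the subunits encoded in mitochondrial DNA, 0 had a named probe set.

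Probe sets of the same gene mostly pointed the same way. Of the 55 member probe sets past the filter, 52 had a negative control tail ratio that passed and 1 a positive one, and in transgenic mice 42 and 0. Of all 27022 probe sets past the filter, 17034 passed in either direction in control mice and 8601 in transgenic mice. For 17 members with 2 or more such probe sets, 2 members had probe sets of opposite sign and 6 had probe sets over 1 log2 unit apart. Ndufa11 read -2.16 with its representative and 0.46 with another probe set, which passed as higher (adjusted p 0.0238). That probe set was at 6.65 in control INPUT and above the nonspecific controls on none of those arrays. In the fractions that form the ratio, it was above them on 3 of 3 control WASH and 2 of 3 control ELUTED arrays. Ndufs8 ranged from -2.03 to 0.24 over 4 probe sets, and its representative, at -1.22, lay between. The genotype difference of Ndufs8 was 0.28 ± 0.25 (SE) with the representative and 0.88 ± 0.27 with the probe set at -2.03. It was 0.37 ± 0.22 with the probe set at -1.18 and -0.16 ± 0.23 with that at 0.24. Only the probe set at -2.03 gave a difference above that of Ndufv1 (0.59), the next smallest of the members. Ndufa12 read -1.71 and -3.20, Ndufa10 -1.32 and -0.15, Ndufs4 -1.86 and -0.71, and Ndufa7 from -2.35 to -1.03 over 5 probe sets. The representatives of Ndufa2, Ndufa12 and Ndufb4 belong to a type that can match more than 1 transcript.

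Genes of the other respiratory complexes had negative control tail ratios as well. Of the complex III subunits 8 of 8 passed as lower, with a median of -2.30, from Uqcrb at -4.06 to Uqcrc2, a core subunit, at -0.72. In ELUTED of control mice Uqcrb exceeded the nonspecific controls on 1 of 3 arrays, so the size of its ratio and its place at the end of the list are uncertain. All 9 complex IV subunits measured passed (median -1.53, from Cox6c at -2.29 to Cox7c at -0.96), as did all 14 of ATP synthase (median -1.59, from Atp5e at -2.81 to Atp5d at -0.55). Of 3 complex II subunits 2 passed (median -1.61, from Sdhc at -2.44 to Sdha at -0.47, adjusted p 0.0547 for Sdha). The assembly factors, which help to build complex I without staying in it, lay closer to 0. Of 17, 15 passed as lower, with a median of -1.09, from Ndufaf2 at -2.53 to Tmem186 at -0.13 (adjusted p 0.535). Atp5e, Sdhc and Ndufaf2, the lowest of their lists, exceeded these controls on 2 of 3 control ELUTED arrays, all but that of mouse 1, so the sizes of these ratios are uncertain too. Of 5 regulators of mitochondrial gene expression, Tfam, which packages mitochondrial DNA, was lower (-0.82) and Ppargc1b, a coactivator of mitochondrial biogenesis, was higher (1.03), around a median of 0.23.

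In transgenic mice 5 of 8 complex III, 4 of 9 complex IV, 9 of 14 ATP synthase and 1 of 3 complex II subunits passed as lower, and so did 7 of 17 assembly factors and 1 of 5 regulators. The genotype difference of the tail ratio passed for 0 genes of these lists. Its median was 1.26 for complex III, 1.12 for complex IV, 0.99 for ATP synthase, 0.89 for complex II, 0.31 for the assembly factors and -0.20 for the regulators, beside 1.14 for the complex I members. No difference between these lists was tested.

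**Figure D5:**
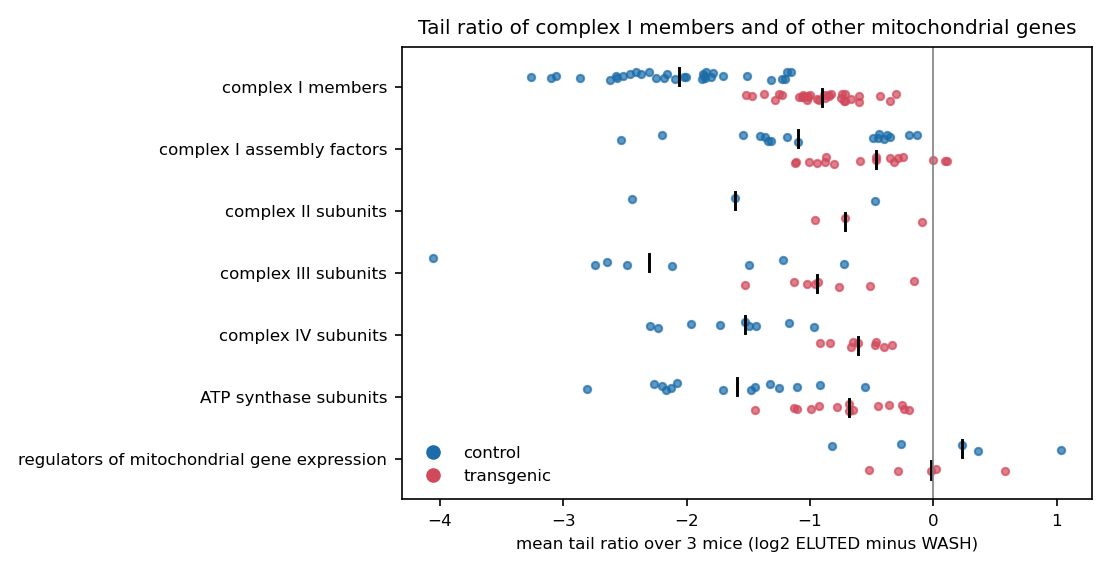
Mean tail ratio over 3 mice (horizontal axis, log2) of each gene, control in blue and transgenic in red, for the complex I members and 6 other lists. Points are genes with a small vertical jitter, black ticks are list medians, which lie at -2.06 and -0.91 for complex I members and nearest 0 for the 5 regulators.

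Promoter windows of 250 bases before to 50 after the start of the gene (RefSeq, GRCm38.p6) were found for 29 of the 32 members, all but Ndufa2, Ndufb9 and Ndufs1. Motifs of 3 factors known to act at genes for mitochondrial proteins were searched on both strands. The NRF1 motif GCGCATGC was found in 3 members (10.3%) and 2.71% of the 32851 windows of the table, and the ETS motif CCGGAAGT in 1 member (3.45%) and 3.89% of windows. The letters AAGATGGC, which are shared by the YY1 motif and by a translation initiator element of mRNAs with short leaders, were found in 7 members (24.1%) and 2.75% of windows. These sites are shown because all 7 lay in the same orientation, after the start of the gene. The stretches below run 5′ to 3′ on the strand of the gene, with the motif in capitals, in the order of the control tail ratio:
Ndufc1, chr3:51408922-51408944, minus strand: gcctgcggaacAAGATGGCgccg
Ndufs6, chr13:73328438-73328460, minus strand: gggtcaccggcAAGATGGCggcg
Ndufb8, chr19:44555393-44555415, minus strand: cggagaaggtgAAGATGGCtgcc
Ndufs4, chr13:114388048-114388070, minus strand: ttgcctacaggAAGATGGCggcg
Ndufa9, chr6:126849104-126849126, minus strand: cattgtgggagAAGATGGCggcc
Ndufs7, chr10:80249462-80249484, plus strand: aggccgaggccAAGATGGCggcg
Ndufa3, chr7:3617384-3617406, plus strand: ccgccaagaacAAGATGGCcggg

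The motif began between base 23 (Ndufc1 and Ndufa3) and base 39 (Ndufb8) after the start, counted from 1 at the start. The 7 members covered most of the range of control tail ratios, from -3.10 for Ndufc1 through -2.52 for Ndufs6, -2.02 for Ndufb8, -1.86 for Ndufs4 and Ndufa9 and -1.85 for Ndufs7 to -1.20 for Ndufa3. Their transgenic ratios ran from -1.25 for Ndufs6 to -0.43 for Ndufa3. At the ends of this order single control mice overlap, with -3.67, -1.92 and -3.71 for Ndufc1 and -0.54, -0.99 and -2.08 for Ndufa3. A relation of these letters to the tail ratio was not tested. The NRF1 motif reads nearly alike on both strands, and in Ndufa11 it was found on each of them, in overlapping copies. The 120 bases before the start of Ndufa11 show this, with the overlapping copies in capitals:
Ndufa11, chr17:56717642-56717761, plus strand: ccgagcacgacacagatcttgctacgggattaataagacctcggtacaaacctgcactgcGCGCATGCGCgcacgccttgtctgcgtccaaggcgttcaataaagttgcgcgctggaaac

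Ndufa11 had the lowest control tail ratio of the 3 members with this motif. Its mean was -2.16 ± 0.57 (SD, n = 3), against -2.004 ± 0.58 for Ndufa6 and -1.80 ± 0.83 for Ndufa8, which do not differ beyond the spread of the mice. A match of letters is a description of the window and says nothing about binding.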

How the data were processed

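The authors deposited log2 expression values per probe set from RMA, per the submitters' processing notes. The sources used here give neither its version nor whether it was run once on all 18 arrays. RMA makes array distributions more alike, so a general shift of 1 fraction can be hidden. The deposited arrays still differed in spread. The SD of log2 values on an array was 1.70 to 1.81 in ELUTED of control mice and 1.82 to 1.91 in that of transgenic mice. In WASH it was 1.94 to 1.97 and 1.99 to 2.00. A narrower array can lower the values of bright probe sets, and the part of this in the ratios was not tested. Per the labels' protocols, amplification from 5 ng took 21 cycles and gave 8 µg of cDNA per array, which can distort differences. The design text names a PrimeView array, whereas the probe set names and annotation belong to a different, perfect-match array. Arrays carry no read depth, and 3 mice per genotype limit the precision.

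Of 45141 probe sets, 104 controls were left out and 28898 had 1 gene, 551 several and 15588 no entry. Gene IDs of 28689 were found in RefSeq (GRCm38.p6), and 0 symbols changed. Models used limma 3.58.1 (R 4.3.3), tested on simulated data, over the 27022 probe sets with a mean above the 40th percentile (5.95). P-values are two-sided, and adjusted p is Benjamini-Hochberg over these probe sets, with 0.05 as the threshold. Counts are over 11974 genes, 1 probe set each. INPUT, WASH and ELUTED were each compared between genotypes on their own arrays. Ratios were taken within a mouse, as the labels put the preparations in 1 mouse, and both genotypes shared 1 spread. Deviations of WASH and ELUTED correlated within a mouse at -0.07, 0.16 and -0.02 in control mice and 0.72, 0.33 and 0.43 in transgenic mice. A probe set was above background where it exceeded the highest nonspecific control of its array. Summaries used Python 3.11.15 and pandas 2.3.3.

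The members, lists and tests were chosen with earlier results of these data known. Genes named are the core subunits, the extremes of the tail ratio (6 at each end in control mice, 4 at each end of the genotype difference), the 4 smallest p-values of each genotype comparison, members with discordant probe sets, Ndufa4, complex I genes outside the rule and the extremes of each other list. Others were named after their values were seen. Alternatives were other filters, other scalings, each mouse left out, the mean of a gene's probe sets, other pairing, each genotype alone and ratios scaled to 1 SD.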

Additional observations from a re-analysis of the deposited data

How the results depend on the processing

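All 32 members passed as lower in control tail ratio under each alternative run, with medians from -2.34 to -1.86 when a mouse was left out. With mice left out 1 at a time, the members that passed ranged from 0 to 29 for the transgenic tail ratio, 0 to 27 for its genotype difference, 0 to 23 for ELUTED between genotypes, 9 to 18 and 0 to 2 for WASH minus INPUT (higher in control, lower in transgenic mice), and 17 to 32 and 0 to 22 for ELUTED minus INPUT (control, transgenic). Genes called in either direction ranged, in the same order, from 0 to 5468, 0 to 1249 and 0 to 1222. For the last 2 measures they ranged from 3780 to 6084 and 4054 to 5583, and from 275 to 3179 and 3 to 936. Quantile normalization of the deposited values again gave 15 members and a median of -0.69 for the transgenic tail ratio, 1 member lower in WASH minus INPUT of control mice and 0 lower in ELUTED minus INPUT of transgenic mice. That last count was also 0 with the filter at the 60th percentile, no filter and centred arrays, 3 with no replicate block and 26 with mice of 1 genotype. The member lower in WASH minus INPUT of transgenic mice was lost (0) with centred arrays, the mean of all probe sets, no replicate block and 1 genotype. Ratios scaled to the same SD gave a transgenic median of -1.23, a genotype difference of 0.52 and Ndufs8 at -0.22. The cause was not tested.

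The replicate numbers shared by the genotypes mark no common litter or day in the labels, and deviations of same-numbered mice correlated at 0.09, -0.04 and 0.26 in INPUT, -0.07, 0.17 and 0.16 in WASH and 0.25, -0.20 and 0.15 in ELUTED. With that number as a replicate block, 0 members passed in each genotype comparison, as without it.

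Over all genes, the median control tail ratio was -0.18, 0.00 after quantile normalization again, -0.30 with centred arrays, 0.05 with no filter and -0.36 at the 60th percentile. The share of called genes above 0 was then 34.0%, 45.4%, 22.9%, 45.0% and 23.7% in control mice and 24.1%, 40.6%, 13.9%, 29.3% and 17.2% in transgenic mice. For WASH minus INPUT of control mice the share was 74.4%, and 61.5% after quantile normalization, and for ELUTED minus INPUT it was 19.9% and 36.5%. Genes called numbered 3230 for the transgenic tail ratio, 1631 after quantile normalization, 1960 at the 60th percentile, 6966 with scaled ratios and 5953 with 1 genotype. For WASH minus INPUT, 5840 and 5675 became 3734 and 3452 with no replicate block. For ELUTED minus INPUT, 2333 in control mice became 426 with 1 genotype, and 32 in transgenic mice ranged from 3 to 1288 over the alternatives. For WASH between genotypes, 0 became 185 without transgenic mouse 3. Of single member results, 614 kept their side of the threshold, 36 lost it, 17 gained it and 1 reversed, the last being Ndufs8. Members near background in ELUTED of control mouse 1 have ratios that are less certain there.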
